A study of Mus musculus with 18 samples.

Results

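The enzymes, carriers and transporters of glycolysis, pyruvate entry and fatty acid oxidation were followed in single cells of the postnatal mouse heart. The 44 genes were taken by symbol from a list of pathway genes, and all 44 were found among the 35808 Ensembl genes of the count matrices. The glycolysis side holds 25 of them, from the glucose transporters to the pyruvate dehydrogenase subunits, and the fatty acid side holds 19, from the intracellular fatty acid carrier Fabp3 to the electron transfer flavoproteins. Single cells were isolated at P4, P7, P14 and P28 from hearts of the Myh6/Esr1-Tomato strain, in which tamoxifen given through the mothers after birth switches on a TDtomato reporter in cells that express the CM gene Myh6. There were 2 chips each at P4, P7 and P14 and 6 chips at P28, all without knockdown. A further 6 P28 chips mixed cells from mice injected after birth with lentivirus. The virus carried a hairpin against Jun (shJun) or a non-targeting hairpin (shNT). The study's methods for these injected mice name neither a strain nor tamoxifen. A chip is an ICELL8 nanowell array on which wells with 1 live cell are chosen by imaging, and each transcript is counted once by its unique molecular identifier (UMI). Both chips of P4, and both of P7, carried cells of the same 2 animals, so the spread between those chips is partly technical and the p-values below measure no more than the spread between chips. Hearts were digested in pieces with a kit at P4 and P7 and by Langendorff perfusion at P14 and P28. Digestion and age therefore cannot be told apart in any comparison of P4 or P7 with P14 or P28.

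In glycolysis a cell takes up glucose, traps it as a phosphate ester and splits it into pyruvate, which is either reduced to lactate in the cytosol or carried into the mitochondrion and turned into acetyl-CoA by pyruvate dehydrogenase. In beta-oxidation, fatty acids are bound to coenzyme A, carried into the mitochondrion as carnitine esters and shortened in repeated rounds of dehydrogenation, hydration, dehydrogenation and thiolysis, with electrons passed on by the electron transfer flavoproteins. The fetal heart relies largely on glucose and lactate, and the adult heart is known for burning mostly fatty acids, a change that takes place around and after birth.

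Clustering was done separately for each stage, and a cluster was called CM-like from cardiomyocyte (CM) markers such as Myh6, Tnnt2 and Ryr2, with the 44 genes left out of the clustering. CM-like cells numbered 169 and 168 on the P4 chips, 14 and 21 on the P7 chips, 256 and 144 on the P14 chips, and 699, 523 and 669 on P28 chips 1, 3 and 5. The other P28 chips held at most 6 CM-like cells each and P7 chip 1 only 14, and sums of fewer than 20 cells entered no test, which left 8 sums of 1190707 to 18466759 UMIs. Of the cells passing the filter, 64.5, 92.1 and 97.0% were CM-like on P28 chips 1, 3 and 5. On P28 chips 2, 4 and 6 it was 0.205, 0.269 and 0.596%, and on the P4 chips 15.4 and 13.3%. All 8 CM markers were detected in each of the 8 sums. Many CM-like cells also held markers of another class. Those with fewer than 2 such markers numbered 35 and 14 on the P4 chips and 31 and 71 on the P14 chips. On P28 chips 1, 3 and 5 they numbered 80, 14 and 225. Values below without cells with markers of another class use these cells only, so P4 rests there on chip 1 alone. Some CM-like clusters had other genes in the lead. Among the 10 leading genes of a P28 cluster of 114 cells were Pdgfrb, Kcnj8 and Steap4, known from mural cells, and among those of a P28 cluster of 103 cells were the immune genes Ccl4, Cxcl2 and Rgs1, and neither had a CM marker among them. CM markers took a median of 3.87 and 4.02% of UMIs in these cells against 5.1% in the other CM-like cells of P28. Without both clusters chips 1, 3 and 5 held 603, 469 and 611 CM-like cells, and values without them are given where a call changed. At P4, 65 and 56 of the CM-like cells (38.5 and 33.3%) held more UMIs of the atrial genes Myl7, Sln, Myl4, Nppa and Mybphl than of the ventricular gene Myl2, against 0 at P14 and P28. These are called atrial-type below, and results are given with and without them. TDtomato was detected in 71.0 and 83.3% of CM-like cells at P4, in 34.0 and 27.1% at P14, and in 34.3, 89.3 and 77.1% on P28 chips 1, 3 and 5. At P14, 244 and 143 of these cells lay in wells labelled CM and 12 and 1 in wells labelled NCM, the other fraction of the centrifuged hearts. The P14 CM-like cells lay in clusters of 360 and 40 cells. In the larger, CM markers took 2.92 and 4.10% of UMIs on chips 1 and 2, and 31.09 and 18.03% of cells held TDtomato. In the smaller these values were 7.79 and 6.98%, and 72.2 and 77.3%. Median UMIs were 9840 and 6041.5 in the larger and 45875.5 and 67830.5 in the smaller. A further P14 cluster of 220 cells scored highest for CM markers but stayed unnamed. Results below are not split by these clusters. Erythroid markers took 67396 and 2509 CPM (UMI counts scaled to the library total, without TMM) on the P14 chips between 233 and 372 at P4, 1194 on P7 chip 2, and 28752, 4978 and 10839 on P28 chips 1, 3 and 5, and their part in the results was not tested.

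The question of the stage comparison was how the transcripts of both pathways change as CMs leave the neonatal period. Within each sum, the UMIs of the fatty acid oxidation enzymes (from the acyl-CoA dehydrogenases to the electron transfer flavoproteins) were set against those of the same enzymes plus the glycolytic and lactate enzymes, a share that does not depend on how libraries are scaled. The fatty acid oxidation share was 41.8 and 36.5% on the P4 chips, 38.6% on P7 chip 2, 50.2 and 56.4% on the P14 chips, and 45.1, 45.1 and 29.0% on P28 chips 1, 3 and 5. Both P14 chips lay above all other chips, and P28 chip 5 lay below all others. The means were 39.1% ± 3.75 (SD, n = 2) at P4, 53.3% ± 4.41 (SD, n = 2) at P14 and 39.7% ± 9.28 (SD, n = 3) at P28. The difference of 14.1 percentage points between P14 and P4 gave p = 0.333 in a two-sided exact permutation test over chips, the smallest p that 2 chips against 2 allow. Without the atrial-type cells the P4 shares were 45.4 and 40.8%, still below both P14 chips, and the P14 excess was 10.2 points. Percentages of all UMIs, unlike this share, depend on what else a library holds. The 10 genes with most UMIs took 45.8 and 29.5% of the P14 sums against 16.5 and 15.8% of the P4 sums. Of all UMIs, fatty acid oxidation enzymes took 0.696 and 0.703% at P4 and 0.537 and 0.760% at P14. Glycolytic and lactate enzymes took 0.970 and 1.22% at P4 and 0.534 and 0.588% at P14. Pgam2 alone held 14216 of 55524 and 35762 of 107529 of the latter UMIs at P4. At P14 it held 2971 of 19484 and 2028 of 15209. The share was not computed without Pgam2.

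**Figure D1:**
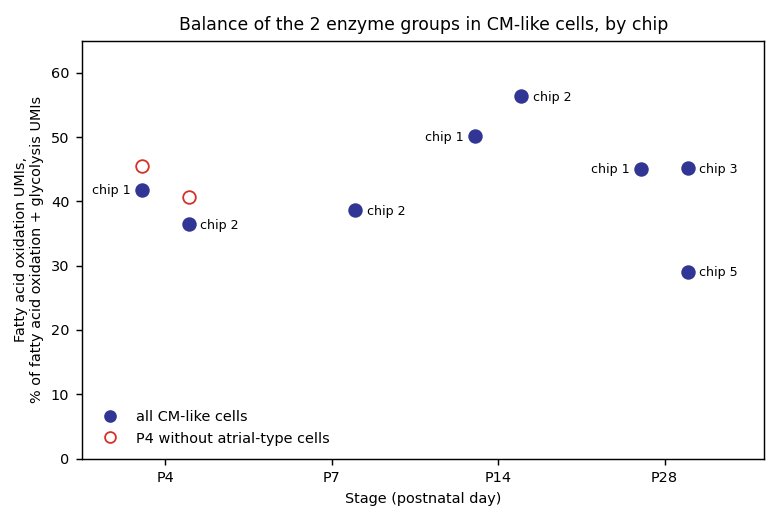
UMIs of the fatty acid oxidation enzymes as a percentage of fatty acid oxidation plus glycolysis UMIs (y axis) in the CM-like cells of each chip by stage (x axis), 1 point per chip with at least 20 cells, with open points for P4 without atrial-type cells. The P14 chips sit at 50.2 and 56.4%, above the P4 chips at 41.8 and 36.5% and the P28 chips, of which chip 5 is at 29.0%.

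The same share was computed in other cell types of these chips, named from their own markers. In Endothelial-like cells it was 38.4 and 38.5% at P4 and 44.8 and 52.4% at P14, and in Macrophage-like cells 38.6 and 42.6% at P4 and 52.4 and 56.5% at P14. In Fibroblast-like cells it was 44.8 and 41.6% at P4 and 47.6 and 44.8% at P14. Both P14 chips lay above both P4 chips in Endothelial-like and Macrophage-like cells, while in Fibroblast-like cells P14 chip 2 and P4 chip 1 were level, and these shares were not tested against each other. In cells of the non-CM clusters the CM markers took 1.10% of a P4 cell's UMIs in the median, 0.971% of a P7 cell's, 1.17% of a P14 cell's and 0.104% of a P28 cell's, and the part of such CM transcripts in these values was not tested.

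P28 chip 5 differed from the other P28 chips on both sides of the share. Aldoa, the muscle aldolase that splits fructose bisphosphate, stood at 3963 CPM there, against 1488 and 2072 on P28 chips 1 and 3 and 1489 to 2408 on the P4, P7 and P14 chips. Hadha, the dehydrogenase subunit of the trifunctional protein, stood at 193 on chip 5 against 325 and 472, and Acaa2, the matrix thiolase, at 284 against 544 and 705. Not all fatty acid oxidation enzymes were lowest on chip 5. Etfb stood at 1265 CPM without TMM there, against 922 and 1304. Echs1 held 2336 of 5071842 UMIs there, against 2320 of 6596858 and 6495 of 18466759. Both animals of chip 5 gave low shares, 28.8 and 29.4%, while the animals of chip 1 gave 43.3 and 45.9%. The level of a gene is given here and below as CPM after TMM scaling unless stated, which evens out differences in library composition.

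Of the 44 members, 1 was higher and 1 was lower at P14 than at P4 at an edgeR adjusted p below 0.05, where 1.25% of the 15690 genes tested were higher and 1.05% lower. The members' median log2 change was 0.25, against -0.07 over all genes. On the fatty acid side 17 of 19 changes were positive with a median of 0.44, and on the glycolysis side 12 of 25 with a median of -0.02. Without the atrial-type cells the medians were 0.19 and -0.11, with 14 of 19 and 12 of 25 positive, and 0 members were called. When libraries were scaled to total UMIs without TMM, the median of all genes moved to -0.73, that of the fatty acid side to -0.22 and that of the glycolysis side to -0.68. The sign of the fatty acid side thus flips with the scaling, and under both scalings its median lay above that of all genes. The 10 genes with most UMIs took 45.8 and 29.5% of the P14 sums, led by Gm13340 and Gm13341, and 16.5 and 15.8% of the P4 sums.

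DESeq2 called more members between the same sums, 7 higher and 1 lower at P14 than at P4, and also more of all genes, 5.27% higher and 3.06% lower. At P28 against P4, edgeR called 0 members higher and 2 lower, where 2.03% of all genes were higher and 1.24% lower, and DESeq2 called 4 higher and 4 lower, where 5.48% of genes were higher and 2.75% lower. At an unadjusted edgeR p below 0.05 were 9 of 44 members and 2817 of all 15690 genes. Without the P28 clusters led by other genes, edgeR called 2 members higher, Slc2a4 and Pfkm, and the same number lower. This setting was added after the clusters were seen. Its counts come without the share of all genes called, so they do not set the members against other genes. The median change at P28 against P4 was 0.05 on the glycolysis side and -0.17 on the fatty acid side. Between P14 and P28, edgeR called 0 members in either direction, where 0.0191% of genes were higher and 0% lower at P28. At an unadjusted p below 0.05 were 6 of 44 members and 9.3% of all genes, and these members were all lower at P28 and all on the fatty acid side. DESeq2 called 1 member lower, Fabp3, where 0.392% of genes were lower. In that comparison 2 of 19 changes on the fatty acid side were positive, with a median of -0.73 against 0.10 over all genes. These stage comparisons share their sums.

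**Figure D2:**
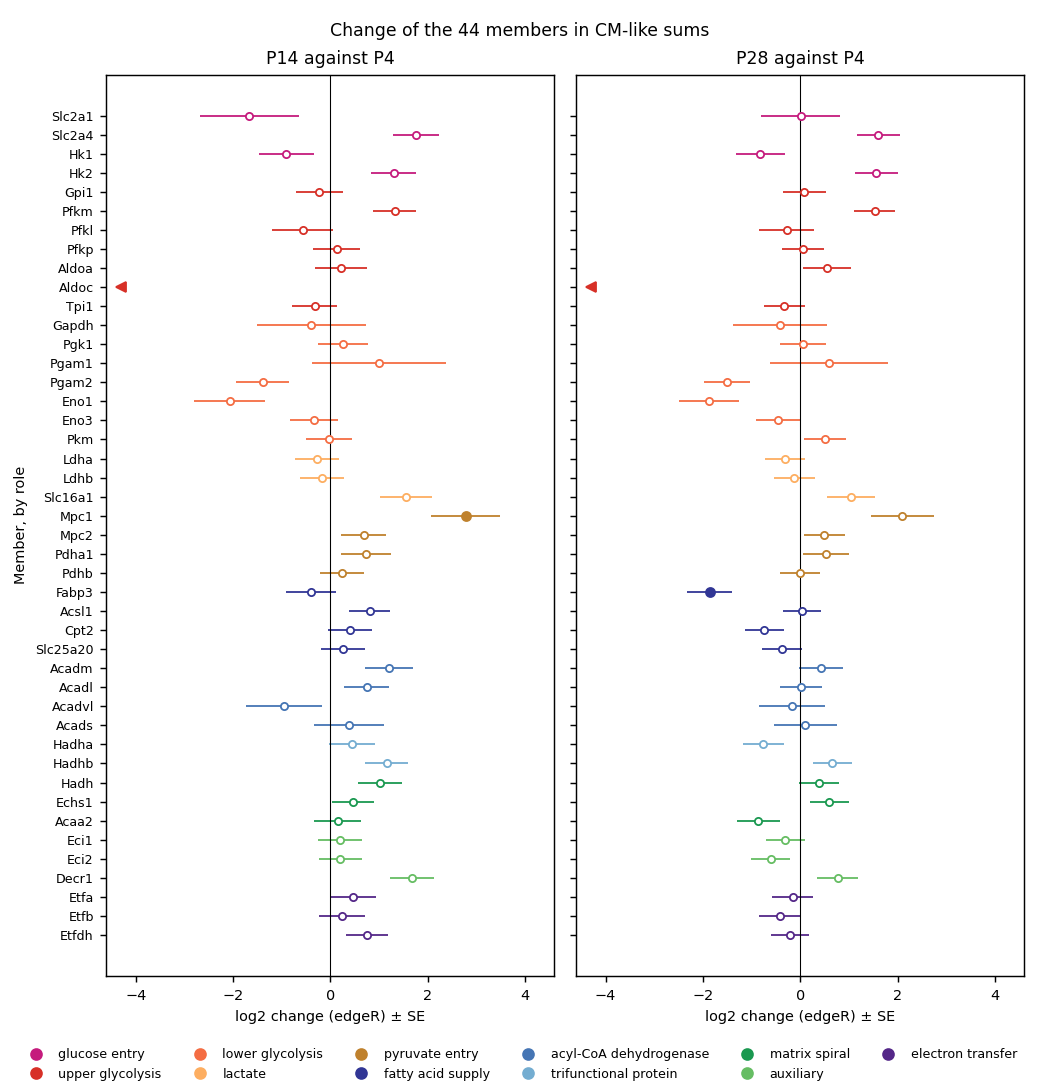
log2 change with its SE (x axis, edgeR) of the 44 members (y axis, grouped and coloured by role) at P14 and at P28 against P4 in CM-like sums, with filled points for an adjusted p below 0.05. Mpc1 at P14 and Fabp3 at P28 are filled, and the arrowheads mark Aldoc, which had no or almost no UMIs at P14 and P28 and whose fitted value lies off the axis.

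Glucose enters CMs through Slc2a1 (GLUT1), the basal transporter, and Slc2a4 (GLUT4), the insulin-responsive transporter of muscle and fat. Slc2a4 stood at 32.8 and 30.1 CPM at P4, 53.9 at P7, 103.8 and 108.1 at P14, and 132.8, 80.1 and 74.3 at P28. All P14 and P28 sums exceeded both P4 sums. The log2 change was 1.75 (SE 0.47) at P14 and 1.60 (SE 0.44) at P28 against P4, with edgeR adjusted p of 0.0597 and 0.0561 that just missed the threshold and DESeq2 adjusted p of 0.00527 and 0.00613. Without the P28 clusters led by other genes the P28 change of Slc2a4 was 1.74 (edgeR adjusted p of 0.04998). It was 1.21 without atrial-type cells (edgeR adjusted p of 0.160). Where each cell was called CM from its own markers it was 0.34 (edgeR adjusted p of 0.945). Slc2a1 made up 12.7 and 13.7% of the UMIs of both transporters at P4, 16.7% at P7, 1.49 and 1.30% at P14, and 2.91, 7.44 and 5.05% at P28. It rested on few cells, with UMIs in 5 and 12 cells at P4 and in 2 and 1 at P14, and without the atrial-type cells its P4 mean was 7.02% in place of 13.2%.

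Hexokinase, which phosphorylates glucose, is encoded by Hk1, the widespread form, and Hk2, the insulin-regulated form of muscle. Hk1 made up 38.5 and 49.8% of hexokinase UMIs at P4, 35.1% at P7, 11.5 and 16.4% at P14, and 11.9, 14.7 and 12.4% at P28. The P14 and P28 shares lay apart from those of P4 and P7. Hk2 stood at 83.3 and 73.8 CPM at P4, 122 at P7, 133 and 254 at P14, and 200.2, 295 and 196.5 at P28, while Hk1 lay between 17.3 and 50.9 at P14 and P28 against 52.1 and 73.2 at P4. The Hk2 change of 1.55 (SE 0.44) at P28 against P4 had an edgeR adjusted p of 0.0624 and a DESeq2 adjusted p of 0.00627.

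Phosphofructokinase commits sugar to glycolysis, and Pfkm, Pfkl and Pfkp encode its muscle, liver and platelet subunits. Pfkm stood at 108.6 and 152.6 CPM at P4, 238 at P7, 341 and 312 at P14, and 373, 326 and 429 at P28. No P14 or P28 sum overlapped with P4. Its share of the UMIs of Pfkm, Pfkl and Pfkp was 55.3 and 60.0% at P4, 63.9% at P7, 77.5 and 79.5% at P14, and 84.8, 79.0 and 78.0% at P28, while the Pfkp share was 22.2 and 31.6% at P4 and between 10.05 and 16.9% at P14 and P28. The change of Pfkm was 1.32 (SE 0.44) at P14 and 1.52 (SE 0.42) at P28, with edgeR adjusted p of 0.121 and 0.0519, and 1.60 at P28 without the P28 clusters led by other genes (edgeR adjusted p of 0.0464). Without atrial-type cells the P4 mean of the Pfkm share was 63.9% in place of 57.6%, and the Pfkm change at P28 was 1.16 (edgeR adjusted p of 0.137). When each cell was called CM from its own markers, without clusters, the Pfkm share was 60.2 and 77.9% at P14, so P14 chip 1 no longer stood apart from P4. Under that rule P28 chips 2, 4 and 6 entered as well, with Pfkm shares of 50, 23.5 and 26.1%, and the mean P28 shares of Pfkm, Hk1 and Slc2a1 were 56.8, 26.8 and 29.1%. By clusters, CM-like cells were only 0.205, 0.269 and 0.596% of the cells passing on chips 2, 4 and 6. On P28 chips 1, 3 and 5 the Pfkm share was then 84.3, 78.7 and 78.4%. The Pfkm change at P28 against P4 under that rule, with all P28 chips, was 0.66 (edgeR adjusted p of 0.873).

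**Figure D3:**
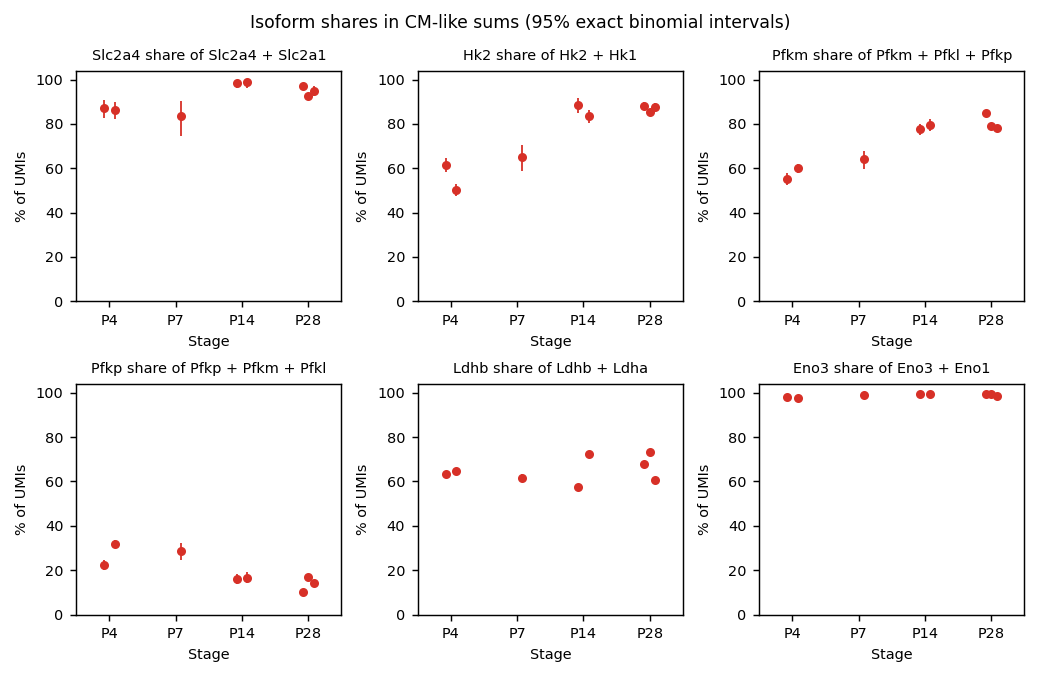
Share of 1 isoform among the UMIs of its set (y axis, percent) in the CM-like sums by stage (x axis), with 1 point per chip and 95% exact binomial intervals that cover counting error only. The Hk2 share was 61.5 and 50.2% at P4 and between 83.6 and 88.5% at P14 and P28, the Pfkm share was 55.3 and 60.0% at P4 and between 77.5 and 84.8% at P14 and P28, and the Ldhb shares of the stages overlap.

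At the later steps of glycolysis 1 isoform held most UMIs at all stages. Among enolases Eno3, the muscle form, held between 97.7 and 99.4% of the UMIs of Eno3 and Eno1 in all 8 sums, and between 88.6 and 96.8% with the sequence copies of Eno1 counted as Eno1. Pgam2, the muscle phosphoglycerate mutase, held all but at most 0.442% of UMIs against Pgam1. Pgam2 itself stood at 1945 and 3654 CPM at P4, 1743 at P7, 1168 and 961 at P14, and 539, 1000.2 and 1409 at P28, a change of -1.51 (SE 0.47) at P28 against P4 with an edgeR adjusted p of 0.0918 and a DESeq2 adjusted p of 0.0232. Ldhb, the heart form of lactate dehydrogenase, held 63.2 and 64.5% of the UMIs of Ldha and Ldhb at P4, 61.7% at P7, 57.3 and 72.2% at P14, and 67.8, 73.4 and 60.7% at P28, so the stages overlapped. Slc16a1 (MCT1), which carries lactate and pyruvate across the cell membrane, stood at 79.9 and 37.9 CPM at P4, 105.8 and 239 at P14, and 127, 160.4 and 76.9 at P28, and its change of 1.55 (SE 0.54) at P14 was called by DESeq2 (adjusted p of 0.0488) but not by edgeR (adjusted p of 0.138).

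Aldoc, the brain form of aldolase, was the member called lower at P14 and at P28 than at P4 by edgeR, and its UMIs sat in a few cells. It had 91 and 138 UMIs at P4, 0 at P7 and P14, and 5, 2 and 0 at P28. On the P4 chips 4 and 6 cells held these UMIs, with 1 cell of each chip holding 61.5 and 89.1%. With 3 counts allowed over the P14 sums, Aldoc was at least 32.8-fold lower than at P4 in CPM without TMM, and the P7 sum, with its own 3 counts allowed, was at least 6.26-fold lower than P4. The edgeR adjusted p was 0.0350 at P14 and 0.0160 at P28. On P4 chip 2, atrial-type cells held 123 of the 138 UMIs, and without the atrial-type cells Aldoc was no longer called at either stage. Aldoc was at most 0.829% of aldolase UMIs at P4.

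Pyruvate crosses the inner mitochondrial membrane through a carrier made of Mpc1 and Mpc2. Mpc1, on chr17:8282904-8297661 (mm10, plus strand), stood at 69.5 and 15.2 CPM at P4, 2.02 at P7, 167.5 and 412 at P14, and 318, 109.3 and 114.3 at P28. It rose at P14 by a log2 change of 2.78 (SE 0.70, edgeR adjusted p of 0.0461), with both P14 sums above both P4 sums, and the P4 sums themselves far apart. The call was lost without either P4 chip (changes of 4.29 and 2.11), without P14 chip 2 (1.99), without P7 chip 2 or P28 chip 3, and without atrial-type cells (2.71, edgeR adjusted p of 0.0577). It was also lost with cell-by-cell CM calls, without cells with markers of another class, with at least 1000 genes per cell, with sums of at least 10 cells, with only the 2 stages compared and without TMM. Against P7 Mpc1 rose by 7.15, from 3 UMIs in 3 cells of the only P7 sum, and it was the single member higher in that comparison, where 0.784% of genes were higher and 1.27% lower. Of the 451 windows of 50 bases in the last stretch of the Mpc1 transcript, 26.4% were shared with other genes, and the copy Mpc1-ps held 20484 UMIs in CM-like cells against 6790 for Mpc1. With the copies added, the P4 levels were 275 and 243 CPM and the change at P14 was 1.83 (SE 0.47, edgeR adjusted p of 0.0498), while the P7 level was 121 CPM and the change from P7 to P14 was 2.94 (SE 0.66, edgeR adjusted p of 0.0353). Mpc2, the partner subunit, stood at 611 and 845 at P4 and at 1021 and 1312 at P14 and was not called. Pdha1 and Pdhb, the subunits of the first pyruvate dehydrogenase enzyme, had P14 log2 changes of 0.72 (SE 0.51) and 0.24 (SE 0.45) and were not called.

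Fabp3, the fatty acid binding protein of heart muscle, on chr4:130308595-130315463, was the member of the fatty acid side called by edgeR. It stood at 4229 and 8941 CPM at P4, 5761 at P7, 4106 and 5906 at P14, and 1560.5, 2117 and 1747 at P28. All P28 sums lay below all earlier sums. It was lower at P28 than at P4 by a log2 change of -1.86 (SE 0.47, edgeR adjusted p of 0.0373), and the change against P14 of -1.47 (SE 0.47) had an edgeR adjusted p of 0.373 and a DESeq2 adjusted p of 0.0372. The call against P4 was lost without either P4 chip (changes of -2.27 and -1.17) and without P28 chip 1, 3 or 5 (changes of -1.76, -1.99 and -1.81). It was lost as well with cell-by-cell CM calls, without cells with markers of another class (-1.09), after thinning to 5000 UMIs per cell (-1.40) and with at least 1000 genes per cell. With the UMIs of its copy Fabp3-ps1 added, the change at P28 against P4 was -1.91 (edgeR adjusted p of 0.0291). The other supply genes, Acsl1, which forms acyl-CoA, and Cpt2 and Slc25a20, which bring acylcarnitines into the matrix, had log2 changes against P4 of 0.80, 0.40 and 0.25 at P14 and of 0.03, -0.74 and -0.38 at P28, and none was called.

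None of the 15 other enzymes of the fatty acid side passed the edgeR threshold at any stage against P4. Acadm, the medium-chain acyl-CoA dehydrogenase, stood at 331 and 383 CPM at P4, 413 at P7, 659 and 990 at P14, and 438, 703 and 292 at P28, a P14 change of 1.21 (SE 0.49, edgeR adjusted p of 0.203). Decr1, which reduces dienoyl-CoA so that unsaturated fatty acids can be oxidized, stood at 203 and 194 at P4, 249 at P7, 697 and 562 at P14, and 245, 402 and 363 at P28, a P14 change of 1.67 (SE 0.45) with an edgeR adjusted p of 0.0602 and a DESeq2 adjusted p of 0.00142. Hadhb, the thiolase subunit of the trifunctional protein, stood at 116.7 and 100.8 at P4, 217 and 268 at P14, and 195.9, 186 and 132 at P28, a P14 change of 1.16 (SE 0.44) called by DESeq2 (adjusted p of 0.0476).

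Among the other fatty acid enzymes, Acadl (long-chain dehydrogenase), Hadh (short-chain hydroxyacyl-CoA dehydrogenase), Echs1 (enoyl-CoA hydratase) and Etfdh (which hands electrons to ubiquinone) had log2 changes of 0.74, 1.02, 0.46 and 0.75 at P14 against P4. Hadha, Acaa2, Eci1, Eci2, Etfa and Etfb had changes of 0.44, 0.15, 0.19, 0.20, 0.46 and 0.24. Acadvl and Acads had changes of -0.95 and 0.38 with SE of 0.78 and 0.72. None of these was called by either tool at P14 against P4. At P28 against P14, the members at an unadjusted p below 0.05 were Fabp3, Cpt2, Hadha, Etfdh, Acaa2 and Decr1, with changes of -1.47, -1.14, -1.20, -0.96, -1.01 and -0.90. At P7 against P4, from 1 P7 sum, edgeR called 0 members, where 0.159% of genes were higher and 0.0446% lower, with 3 of 44 members and 14.4% of all genes at an unadjusted p below 0.05, and DESeq2 called 1 member lower, where 0.633% of genes were lower.

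For most of the other glycolytic genes the change was smaller than its error. Gpi1, Pfkl, Pfkp, Aldoa, Tpi1, Pgk1, Eno3, Pkm, Ldha and Ldhb had log2 changes between -0.57 and 0.25 at P14 against P4, each smaller than its SE. Gapdh and Eno1 cannot be read from their own rows. Gapdh had 212 UMIs in all CM-like cells, against 24677 for the genes that share sequence with the end of its transcript, and Eno1 had 855 against 3389. With the copies added, Gapdh had a log2 change of -0.17 (SE 0.49) and Eno1 of -1.59 (SE 0.50, edgeR adjusted p of 0.0984) at P14. Ldhb had 10448 UMIs in a copy against 68509 of its own. Acadvl, with 622 UMIs, overlaps Dvl2 on the opposite strand over 42.9% of its exons, and whether the counting used the strand is not given in the sources used here. Pgam1 had 92 UMIs in all, with an SE of 1.37 on its log2 change at P14.

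Atrial-type cells of P4 had a smaller share of fatty acid transcripts than the other CM-like cells of the same chips. The fatty acid oxidation enzymes took 0.491 and 0.477% of UMIs in atrial-type cells on the 2 chips, against 0.822 and 0.827% in the others, while the glycolytic and lactate enzymes took 0.942 and 1.26% against 0.987 and 1.20%. On the fatty acid side 17 of 19 members were lower in atrial-type cells on both chips and 0 were higher on both, where 28.1% of 9724 genes with at least 20 UMIs on each chip were lower on both and 28.6% higher on both. On the glycolysis side 15 of 24 such members were lower on both chips and 4 were higher. The 2 chips hold cells of the same animals, and no test was made over them.

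Fabp3 stood at 2138 and 4341 CPM without TMM in atrial-type cells against 7406 and 13048 in the others, and Hadhb at 65.1 and 54.6 against 200.6 and 144.0. Acsl1 stood at 143 and 95.5 against 407 and 288. Slc2a4 and Pfkm were low in atrial-type cells as well, at 15.1 and 19.0 against 58.4 and 41.6 and at 80.7 and 73.6 against 174 and 223. In the opposite direction, Pgam2 stood at 3403 and 5899 in atrial-type cells against 1918 and 3069, and Hk1 at 74.8 and 95.5 against 61.5 and 73.9. Atrial-type cells made up 38.5 and 33.3% of the CM-like cells at P4 and 0% at P14 and P28, so the stages differ in this respect too, and its part in the stage comparisons is given above as values without these cells.

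**Figure D4:**
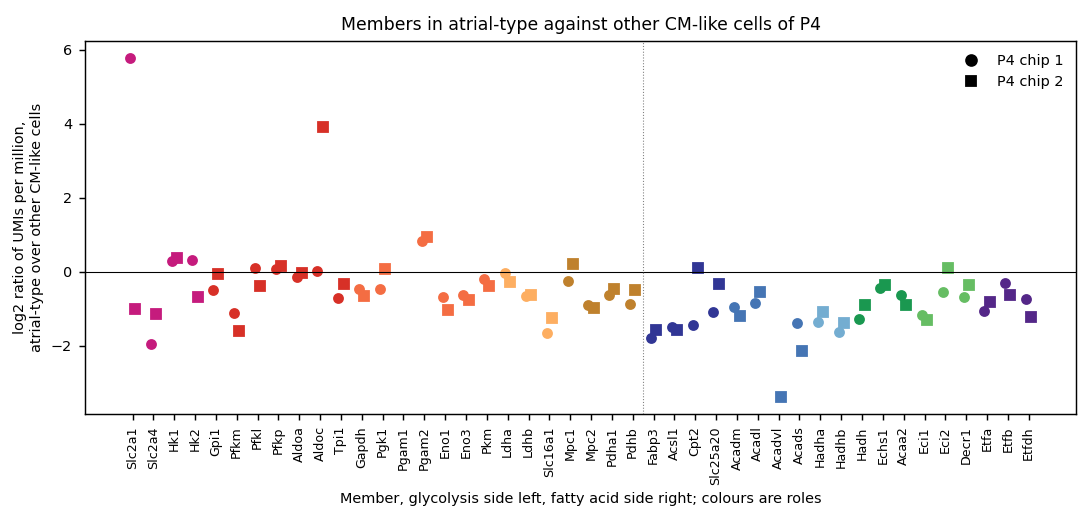
log2 ratio of CPM without TMM in atrial-type over other CM-like cells of P4 (y axis) for each member (x axis), with circles for chip 1 and squares for chip 2, and with no point for members under 20 UMIs on a chip or without UMIs on 1 side. On the fatty acid side all points but those of Cpt2 and Eci2 on chip 2 lie below 0, while Pgam2 and Hk1 lie above 0 on both.

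The comparison with other cell types of the same chips asked where in the heart these transcripts are found. At P4 and P14, with the chip as a block, 28 of 44 members were higher in CM-like than in Endothelial-like sums at an edgeR adjusted p below 0.05, where 4.73% of 13939 genes were higher and 4.48% lower. Against Fibroblast-like sums 30 were higher, where 6.3% of genes were higher and 4.79% lower, and against Macrophage-like sums 30 were higher, where 9.52% were higher and 6.86% lower. None of the 44 was lower in any of the 3 comparisons by edgeR or DESeq2, where DESeq2 called 8.82, 9.83 and 12.6% of genes lower. The members' median log2 difference was 2.12, 2.46 and 2.45, against -0.10, -0.02 and 0.26 over all genes. The 3 comparisons share the CM-like sums.

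On the fatty acid side 15, 15 and 17 of 19 members were higher, and on the glycolysis side 13, 15 and 13 of 25. Fabp3 stood at 5539 and 11246 CPM in CM-like sums of P4 and 5547 and 7667 at P14, against 733 to 1501 in Endothelial-like, 481 to 921 in Fibroblast-like and 193 to 1369 in Macrophage-like sums. The groups did not overlap, and the differences were 2.81 (SE 0.35), 3.66 (SE 0.36) and 3.54 (SE 0.36) with edgeR adjusted p of 0.000197, 1.69e-05 and 1.52e-05. Ldhb stood at 1277 to 1892 in CM-like sums and at 58.0 to 324 in the other classes, and Acsl1 at 248 to 538 against 10.7 to 99.7. Other members with small p were Mpc2, Etfa, Etfb, Aldoa, Pdha1, Acadl and Eno3.

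The members not called higher in any of the 3 comparisons were Slc2a1, Hk1, Pfkl, Pfkp, Aldoc, Pgam1 and Eno1, which are the isoforms less typical of muscle, and Slc2a4, Gapdh, Acads and Eci2. Several of them had few UMIs in the CM-like cells of all stages. Pgam1 had 92, Gapdh 212, Aldoc 236, Slc2a1 282, Acads 830 and Eno1 855. This limits what their missing calls can show. Slc2a1 stood at 1.85 to 6.27 CPM in CM-like sums and at 0 to 5.35 in the other classes, which overlap. Leaving out P4 chip 1 or 2 lowered the count against Endothelial-like sums from 28 to 17 and 14. The counts of 17 and 14 come without the share of all genes called in the same fits. They therefore do not set the members against other genes.

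**Figure D5:**
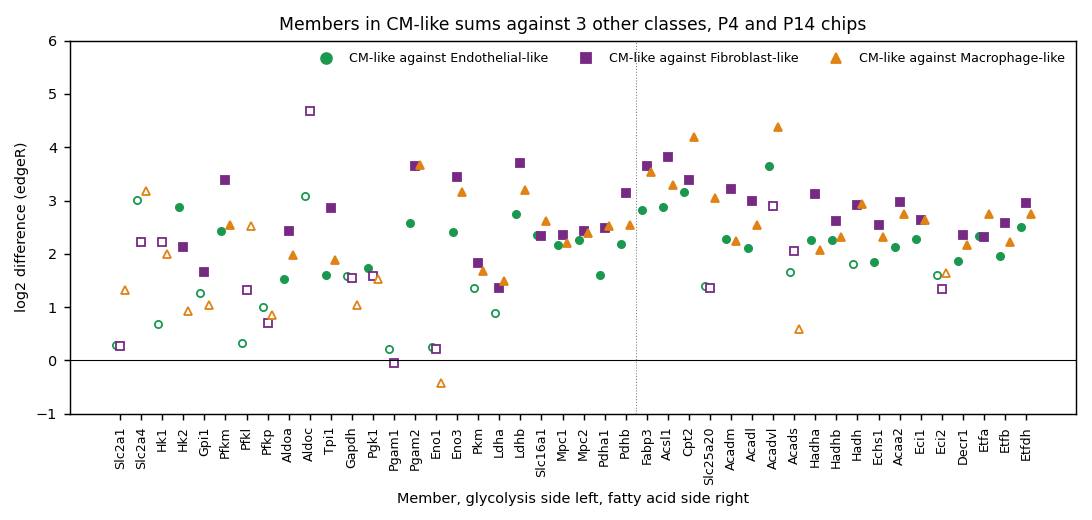
log2 difference (y axis, edgeR) of each member (x axis) between CM-like sums and Endothelial-like, Fibroblast-like or Macrophage-like sums of the P4 and P14 chips, filled for an adjusted p below 0.05 and left out where the other class had under 3 UMIs. Of the 44 differences 44, 43 and 43 are above 0, with medians of 2.12, 2.46 and 2.45.

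The step from P4 to P14 within each class was taken from a separate edgeR fit with a term for each class and stage and without a chip block, in which 0 members were called in any class. At an unadjusted p below 0.05 were 4 of 44 members in CM-like sums (8.73% of all genes), 5 in the Endothelial-like class (7.78%), 4 in the Fibroblast-like class (10.2%) and 9 in the Macrophage-like class (16.7%). Of all genes, 0.0994% were higher and 0.0729% lower in CM-like sums, 0.0729% and 0.106% in Endothelial-like sums, 0.0663% and 0.106% in Fibroblast-like sums, and 0.179% and 0.537% in Macrophage-like sums. Whether the step from P4 to P14 differed between cell types was tested as an interaction in the same fit. By edgeR 0 members were called for CM-like minus Endothelial-like and 0 for CM-like minus Fibroblast-like, where 0% of 15086 genes were called in each, with 0 and 2 members and 3.47 and 5.49% of all genes at an unadjusted p below 0.05. DESeq2 called 0 members in either, where 0.0398 and 0.255% of genes were called, and edgeR with the chip as a block called 0 members in either. On the fatty acid side the median log2 change from P4 to P14 was 0.46 in CM-like sums (-0.05 over all genes), 0.76 for the Endothelial-like class (0.00456 over all genes), -0.57 for the Fibroblast-like class (-0.30) and -0.21 for the Macrophage-like class (-0.30). The missing calls do not show that the classes changed alike.

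Regulators and neighbours of the pathways were read from a list of 102 further genes, of which 92 were tested between stages. At P14 against P4, 5 of them were higher and 0 lower by edgeR, where 1.25% of all genes were higher. Pnpla2, the lipase that opens stored triglyceride, stood at 15.2 and 25.4 CPM at P4 and at 234 and 185 at P14, a change of 3.37 (SE 0.51, edgeR adjusted p of 0.00263). Pdk4, the kinase that switches off pyruvate dehydrogenase, stood at 78.9 and 27.5 at P4, 515 and 728 at P14, and 54.5, 58.0 and 160.0 at P28, a P14 change of 3.55 (SE 0.64). Plin5, which coats lipid droplets, and Lipe, hormone-sensitive lipase, rose by 2.15 and 3.55 at P14, and Lipe was at most 5.40 at P28. Without cells with markers of another class, where P4 rests on chip 1 alone, the Lipe log2 change, P14 against P4, was -1.50. Epas1, which encodes a hypoxia-inducible factor, stood at 14.5 and 18.1 at P4 and between 90.1 and 188 at P14 and P28, changes of 3.29 (SE 0.49) and 2.77 (SE 0.46). The 8 endothelial markers together took 155 and 190 CPM without TMM in the CM-like sums of P4, 348 and 296 at P14, and 644, 461 and 693 at P28, with none of the 8 at 0, and their part in the values of Epas1 and of Cd36, described next, was not tested.

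At P28 against P4, 3 of the 92 were higher by edgeR, where 2.03% of all genes were higher. Oxct1, which activates ketone bodies for oxidation in muscle, stood at 217.5 and 173 CPM at P4 and at 756, 788 and 669 at P28 (change of 1.92, SE 0.43), and Pnpla2 and Epas1 were the others. Acot1, an acyl-CoA thioesterase, fell from 51.6 and 33.3 CPM at P4 to 5.83, 4.09 and 4.14 at P28. Cd36, the fatty acid transporter of the cell membrane, stood at 269.8 and 271.9 at P4 and 794 and 992 at P14 with an edgeR adjusted p of 0.0554. Cpt1a, the carnitine palmitoyltransferase of most tissues, stood at 3.15 and 33.5 at P4, which spans its P14 and P28 levels. Cpt1b, the muscle form, had 24 UMIs in all CM-like cells and did not reach the test, and all windows at the end of its transcript are shared with an overlapping gene, Gm44502.

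The factors known to drive fatty acid oxidation genes were not called at P14 or P28 against P4. The P14 changes were 1.37 (SE 0.67) for Ppara, 1.12 (SE 0.62) for Ppargc1a, 1.39 (SE 0.65) for Esrra and -0.87 (SE 0.91) for Esrrg, and -0.60 (SE 0.46) for Hif1a. Ppargc1a stood at 140.5 and 117.2 CPM at P4, 394 and 164.5 at P14, and 62.4, 194 and 40.4 at P28, so the stages overlapped.

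Promoters of 41 of the 44 members were given by RefSeq (GRCm38.p6, 250 bases before to 50 after the start), with none matched for Slc2a4, Acaa2 and Decr1. The letters ACGTG, the core of the site bound by hypoxia-inducible factors such as the product of Epas1, were found on either strand in 13 of 24 members of the glycolysis side and 1 of 17 of the fatty acid side, and in 21.8% of all 27025 genes. CACGTG, which contains ACGTG on both strands, was found in 3 members (Ldha, Pfkm and Slc16a1) and in 8.09% of genes. The site of estrogen-related receptors, TCAAGGTCA, and the nuclear receptor repeat of AGGTCA with 1 base between were found in 0 of 41 members and in 0.466 and 0.0481% of genes, a MEF2 motif of CTA and TAG with 4 bases between in 2 members (Ldhb and Mpc2) and 4.23% of genes, and a nuclear respiratory factor motif of GCGCA and GCGC with 1 base between in 5 members (Eno1, Etfb, Etfdh, Ldha and Pgam1) and 5.19% of genes. A match is a run of letters and no measured binding, and a promoter can have sites outside this window. The promoters below are those of the glycolytic member with most matches (Ldha, chr7:46845554-46845853, plus strand), of the muscle hexokinase (Hk2, chr6:82774405-82774704, minus strand) and of the only fatty acid member with a match (Acadvl, chr11:70015379-70015678, minus strand), printed 5′ to 3′ with ACGTG or its reverse complement in capitals. Ldha has 5 matches, of which 4 are CACGTG read on both strands, Hk2 has 2 and Acadvl 1.
Ldha: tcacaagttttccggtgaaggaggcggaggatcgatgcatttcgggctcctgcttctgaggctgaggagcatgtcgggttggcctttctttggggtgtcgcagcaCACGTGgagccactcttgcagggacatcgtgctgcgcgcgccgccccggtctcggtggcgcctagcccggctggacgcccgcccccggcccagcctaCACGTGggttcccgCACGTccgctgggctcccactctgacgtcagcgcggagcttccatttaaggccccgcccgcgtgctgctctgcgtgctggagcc
Hk2: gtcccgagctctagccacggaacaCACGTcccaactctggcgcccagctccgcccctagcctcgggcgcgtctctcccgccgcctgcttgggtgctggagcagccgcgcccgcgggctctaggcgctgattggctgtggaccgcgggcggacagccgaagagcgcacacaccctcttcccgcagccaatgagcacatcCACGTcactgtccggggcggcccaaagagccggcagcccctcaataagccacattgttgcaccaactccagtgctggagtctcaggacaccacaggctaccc
Acadvl: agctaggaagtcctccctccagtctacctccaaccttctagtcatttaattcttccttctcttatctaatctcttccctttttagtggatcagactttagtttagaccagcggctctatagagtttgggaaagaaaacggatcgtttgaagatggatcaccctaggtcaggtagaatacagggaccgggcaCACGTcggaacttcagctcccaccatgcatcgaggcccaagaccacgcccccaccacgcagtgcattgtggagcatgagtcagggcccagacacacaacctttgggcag

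The knockdown samples asked what lowering Jun, a subunit of the AP-1 transcription factor, does in CMs at P28. Jun stood at 55.5 and 62.2 CPM in CM-like cells of the shNT animals and at 25.5 and 31.2 in the shJun animals. Both shJun animals lay below both shNT animals, with a change of -1.05 (SE 0.24) and an unadjusted edgeR p of 0.00458 that did not pass the adjustment (edgeR adjusted p of 0.999876). Cells of 2 animals per hairpin were compared, with 795 to 1057 CM-like cells each. The largest CM-like cluster of shJun animal 2, with 379 of its 899 CM-like cells, had liver genes such as Ttr, Alb, Hpx and Apoa1 among its 10 leading genes and no CM marker, while CM markers took a median of 10.4% of UMIs in these cells and 10.1% in the other CM-like cells of that animal. TDtomato was detected in 0 to 0.669% of the CM-like cells of the knockdown chips, against 34.3, 89.3 and 77.1% on P28 chips 1, 3 and 5. Whether the knockdown mice carried the reporter or were given tamoxifen was not tested.

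Of the 44 members 43 were tested and 0 were called by edgeR, where 0% of 17771 genes were called, with 0 members and 2.19% of all genes at an unadjusted p below 0.05, and 0 members by DESeq2, where 0.0675% of genes were called. Without the cluster led by liver genes 0 members were called as well. On simulated counts for this fit 17 of 100 changes of 4-fold were recovered, so the missing calls do not show that the members stayed alike. On the fatty acid side 1 of 19 changes was positive, with a median of -0.11, against -0.00262 over all genes, and on the glycolysis side 16 of 24 were positive with a median of 0.02. The member with the smallest p was Acaa2 at 1232 and 1334 CPM with shNT and 923 and 1154 with shJun, a change of -0.30 (SE 0.21). The fatty acid oxidation share was 40.0 and 44.6% in shNT animals 1 and 2 and 38.8 and 41.1% in shJun animals 1 and 2. Animals of the same number shared chips, and in both pairs the shJun animal lay below the shNT animal, although the 4 values overlap between the hairpins, and the difference was not tested. Without the cluster led by liver genes the share of shJun animal 2 was 41.2%.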

How the data were processed

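Per the labels and the study's methods, cells were dispensed on ICELL8 chips, and reads were aligned to mm10 with STAR (2.5.2b) and assigned to Ensembl genes with featureCounts (Subread 1.4.6-p1), as the submitters' processing notes name them. As deposited, the matrices hold unnormalized UMI counts for each gene in each well. A cell passed with at least 500 genes and a log10 UMI count within 2 SD of its group's mean, 12794 of 15993 cells of the stages and 7057 of 7482 knockdown cells. Of 5051 barcodes, 4890 occur in several samples. No doublet caller was run, since wells were imaged. Cells were clustered per stage or knockdown animal (10 principal components, 30 neighbours, leidenalg 0.10.2 at a resolution of 0.8 or 1) and named from markers, under a scoring rule set after the clusters were seen, so names can differ from those of the study. Mitochondrial, spike-in and reporter columns were left out.

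For each chip, the UMIs of its CM-like cells were added up (for each animal in the knockdown, whose hairpin is given in the well reports) where at least 20 cells were present. Sums were tested with edgeR 4.0.16 (TMM, filterByExpr, quasi-likelihood F test, Benjamini-Hochberg adjustment at 0.05) over all genes under R 4.3.3, in 1 fit for the stages (8 sums, 15690 genes, 4 residual degrees of freedom), 1 for the classes with the chip as a block (16 sums, 13939 genes), 1 for class by stage without a block (16 sums, 15086 genes, 8 residual degrees of freedom) and 1 for the knockdown (4 sums, 17771 genes). DESeq2 1.42.0 was an alternative. The stage, class and knockdown fits were tested on simulated counts, the class by stage fit was not. Intervals are exact binomial at 95% and cover counting error only. The members and the further list of 102 genes were chosen with earlier results of these data known. Named with values per sum were all isoform sets, up to 5 members per direction with the smallest p past the threshold, and 9 regulators and carriers of the further list, and Aldoa, Hadha, Acaa2, Acadm, Decr1, Hadhb, Slc16a1, Mpc2, Ldhb, Acsl1 and Hk1 were singled out with values after these had been seen. A gene of the further list is not reported here. Alternatives are given below, 5 of them added after the data were seen. In the knockdown, shNT and shJun animals with the same number shared chips and deviated together (r = 0.44 over 3615 genes), so these numbers pair the animals.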

Additional observations from a re-analysis of the deposited data

Results flagged for a closer look

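Values outside the rows of the members themselves were looked at because these genes share the end of their transcript with other genes, many of them pseudogenes, whose rows the comparisons did not use. In CM-like cells the sequence copies held 96984 UMIs for Fabp3, 24677 for Gapdh, 20484 for Mpc1, 10448 for Ldhb and 3389 for Eno1. How reads were divided between a gene and its copies is not given in the sources used here, and the cause of these counts was not tested. With the copies added, the fatty acid oxidation share was 39.8 and 34.7% at P4, 48.4 and 54.3% at P14, and 43.01, 42.5 and 28.1% at P28.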

How the results depend on the processing

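The calls of single members rested on few sums and often changed with the processing, and the cause was not tested unless named. Apart from the DESeq2 shares given above, the counts in this section come without the share of all genes called under the same setting. They therefore do not set the members against other genes. At P14 against P4, where 1 member was higher and 1 lower, DESeq2 gave 7 higher, no filter on low counts 3 higher, cells thinned to 5000 UMIs 3 higher and 0 lower, only the 2 stages compared 0 lower, and total UMIs without TMM 0 higher and 3 lower. Calling CMs cell by cell, leaving out atrial-type cells, leaving out cells with markers of another class, at least 1000 genes per cell and sums of at least 10 cells each gave 0 higher and 0 lower. At P28 against P4, where 0 were higher and 2 lower, DESeq2 and sums per animal each gave 4 higher and 4 lower, no filter 4 higher, only the 2 stages 3 higher, thinning 1 higher and 0 lower, leaving out cells with markers of another class 0 lower, and cell-by-cell calls, no atrial-type cells, at least 1000 genes and at least 10 cells each 1 lower. Without the CM-like clusters led by genes of other cell types 2 were higher. At P28 against P14 DESeq2 gave 1 lower. At P7 against P4, DESeq2 and no filter each gave 1 lower and only the 2 stages 2 lower. At P14 against P7, DESeq2 gave 2 higher and 1 lower, no filter 1 lower, thinning 0 higher and no TMM 1 lower. For shJun, no filter gave 1 call.

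Leaving out 1 chip at a time gave 0 to 3 members higher and 0 to 1 lower at P14 against P4, and 0 to 3 higher and 0 to 2 lower at P28 against P4. Either P4 chip left out gave 0 calls in each of these 4 counts, as did P28 chip 3, while P14 against P4 had 3 higher without P28 chip 5, which is only in the pooled spread. Members higher than in Endothelial-like, Fibroblast-like and Macrophage-like sums then numbered 14 to 27, 25 to 29 and 26 to 30. The P4 fatty acid oxidation share was 43.1% without atrial-type cells, and the P7 share 42.0% with cell-by-cell calls and 40.8% after thinning. Without cells with markers of another class, where P4 rests on chip 1 alone, the Lipe log2 change, P14 against P4, turned to -1.50. Of the gene values under alternatives, 460 stayed on their side of the threshold, 97 lost and 38 gained a call.

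The labels number the chips of each stage, but nothing ties equal numbers of different stages, and equal numbers of P4 and P14 did not deviate together (r = -0.04 over 3052 genes). With the replicate number as a block, P14 against P4 had 5 members higher, P28 against P4 1 higher and P7 against P4 1 lower, and with the 2 stages alone plus the replicate block P14 against P4 had 2 higher and 2 lower. In the knockdown, pairing the animals that share chips gave 0 calls, as did the fit without the block.

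Depth and replication limit these values: P7 rests on 21 cells, P4 and P14 on 2 chips each, and on simulated counts for P14 against P4 0 of 100 changes of 2-fold were recovered. Of 100 changes of 4-fold, 8 were recovered there. For CM-like against Fibroblast-like sums 0 and 7 of 100 changes of 2-fold and 4-fold were recovered, and for shJun against shNT 1 and 17, with 9 false calls.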

Other observations

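The 14 CM-like cells of P7 chip 1, too few for the tests, gave a fatty acid oxidation share of 41.4%, and the 3, 4 and 6 CM-like cells of P28 chips 2, 4 and 6 gave 47.4, 46.7 and 58.7%. Within single CM-like cells the fatty acid oxidation enzymes took a median of 0.591 and 0.617% of UMIs at P4, 0.404 and 0.584% at P14, and 0.468, 0.564 and 0.400% on P28 chips 1, 3 and 5. The glycolytic and lactate enzymes took a median of 0.850 and 1.06% at P4, 0.427 and 0.517% at P14, and 0.583, 0.679 and 1.03% on those P28 chips. As in the sums, these percentages of all UMIs depend on what else a cell's library holds, which differed between stages. More UMIs of the fatty acid oxidation enzymes than of the glycolytic and lactate enzymes were held by 29.0 and 16.7% of the CM-like cells at P4, 49.2 and 57.6% at P14, and 29.9, 24.3 and 3.74% on P28 chips 1, 3 and 5.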
